A study of Mus musculus with 60 samples.

Results

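The 41 cell cycle and DNA replication genes described here are a fixed list of 17 genes that act in G1 and S phase and 24 that act in G2 and mitosis, out of 55413 gene symbols in each table. The S phase list holds the MCM helicase genes (Mcm2 to Mcm7), Gins2, Cdc6, Cdt1, Pcna, Rrm1, Rrm2, Tyms, Uhrf1, Ccne1, Ccnd1 and E2f1. The mitosis list holds Mki67, Top2a, Ube2c, Birc5, Cdk1, Ccna2, Ccnb1, Ccnb2, Cdc20, Plk1, Aurka, Aurkb, Bub1, Bub1b, Cenpa, Cenpe, Cenpf, Kif11, Kif20a, Nusap1, Tpx2, Prc1, Cks2 and Stmn1. All 41 symbols were found in all 4 tables.

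RNA was measured in 52 bulk libraries, each made from 2000 sorted cortical microglia of Spp1-CreER:R26-Tdtomato mice. In this line the Spp1 promoter drives an inducible recombinase, and cells in which it was active carry tdTomato (Tdt+). Every group comes from mice with a stroke, and none from uninjured animals. Tdt+ cells of the injured cortex made up a time course at day 3 (P9, n = 5), day 7 (P13, n = 5), day 14 (P20, n = 5) and day 28 (P34, n = 4) after injury. Separate tables held contralateral, Tdt- and Tdt+ libraries at day 7 (P13, n = 3 each), at day 28 (P34, n = 4 each) and at day 28 after lipopolysaccharide (LPS, P34, n = 4 each). The Tdt- and Tdt+ cells came from the injured cortex. The labels used here do not give the dose or timing of LPS or of the induction of the recombinase. The time course has no contralateral group, so days after injury and postnatal age cannot be told apart.

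A dividing cell copies its DNA in S phase and separates the copies in mitosis. In G1, cyclin D and cyclin E kinases release E2F transcription factors, which switch on the genes for loading the helicase, making nucleotides and copying DNA. The mitotic cyclins, kinases, spindle and kinetochore genes come on later, in G2, and their transcripts are mostly degraded or shut off when a cell leaves the cycle. Many S phase transcripts are also present at some level in cells that do not divide, whereas Mki67, Ube2c and Bub1 are close to absent there. Microglia of the mouse cortex multiply during the early postnatal weeks and divide rarely in the adult. In bulk RNA, fewer cycling cells and less transcript per cycling cell cannot be told apart.

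Because both classes are known to be driven by different promoter elements, the promoters of 5 members whose RNA fell from day 3 to day 28 are shown. They are the 250 bases before the annotated start of 1 promoter entry per gene, from RefSeq on GRCm38.p6, written 5′ to 3′ on the gene's strand. The windows of Mcm5 and Top2a reach past the outer boundary of the annotated gene, at 75109468 and 99024199. Capitals mark words of 3 motifs on either strand. These are the E2F words TTTCCCGC, TTTGGCGC, TTTCGCGC and TTTGCCGC, the CHR words TTTGAA and TTCGAA (the cell cycle genes homology region, a site of the DREAM complex) and CCAAT, the site of NF-Y. Words may overlap, and adjoining words then form one run of capitals.
Ube2c, chr2:164769679-164769928, plus strand: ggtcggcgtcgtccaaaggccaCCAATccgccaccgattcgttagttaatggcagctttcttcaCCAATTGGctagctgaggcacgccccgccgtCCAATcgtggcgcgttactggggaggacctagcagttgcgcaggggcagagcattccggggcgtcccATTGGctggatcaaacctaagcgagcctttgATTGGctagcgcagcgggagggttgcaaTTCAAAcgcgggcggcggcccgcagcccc
Ccnb2, chr9:70421555-70421804, minus strand: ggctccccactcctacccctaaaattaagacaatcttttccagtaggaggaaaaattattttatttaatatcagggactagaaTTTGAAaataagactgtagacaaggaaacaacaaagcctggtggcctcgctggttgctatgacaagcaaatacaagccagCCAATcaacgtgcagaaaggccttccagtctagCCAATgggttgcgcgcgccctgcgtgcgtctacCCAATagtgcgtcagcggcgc
Top2a, chr11:99024190-99024439, minus strand: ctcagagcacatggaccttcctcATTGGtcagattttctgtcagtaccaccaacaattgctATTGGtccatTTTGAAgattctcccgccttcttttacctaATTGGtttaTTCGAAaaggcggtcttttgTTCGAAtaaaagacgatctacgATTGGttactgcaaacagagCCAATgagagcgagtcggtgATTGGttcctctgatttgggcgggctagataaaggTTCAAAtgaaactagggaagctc
Mcm5, chr8:75109259-75109508, plus strand: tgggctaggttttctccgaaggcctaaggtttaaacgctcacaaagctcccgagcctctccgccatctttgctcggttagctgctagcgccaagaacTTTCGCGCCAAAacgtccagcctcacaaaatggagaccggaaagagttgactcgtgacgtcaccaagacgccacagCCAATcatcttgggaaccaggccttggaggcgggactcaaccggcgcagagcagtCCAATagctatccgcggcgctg
Mcm6, chr1:128359706-128359955, minus strand: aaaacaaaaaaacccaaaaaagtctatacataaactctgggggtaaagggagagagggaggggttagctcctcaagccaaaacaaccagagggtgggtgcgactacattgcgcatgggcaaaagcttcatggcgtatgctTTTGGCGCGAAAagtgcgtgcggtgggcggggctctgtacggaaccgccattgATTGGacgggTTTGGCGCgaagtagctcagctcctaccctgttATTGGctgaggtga
The 3 mitosis windows hold CHR words together with several CCAAT words and no E2F word, and the 2 replication windows hold E2F words and no CHR word. These 5 were picked for holding such words. Over the 33 members with a promoter in the RefSeq table, CHR and CCAAT were found together in 8 of 19 mitosis windows (42.1%) and in 2 of 14 S phase windows, against 6.21% of 27025 genes. An E2F word was found in 4 of 14 S phase windows (28.6%), in 1 of 19 mitosis windows (5.26%) and in 1.91% of all genes. With 50 bases after the start included, the share of mitosis windows with CHR and CCAAT was 73.7%, against 7.7% of all genes, and the share of S phase windows with an E2F word was 42.9%, against 2.32%. A word match describes the sequence and does not show that a factor binds there.

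Values are TPM, a transcript abundance corrected for gene length, so levels of different genes can be compared. A score is the mean of log2(TPM + 1) over the genes of a class in a library. The number of genes at 1 TPM or more per library ran from 11544 to 14093. The unit holds no record of sequencing depth, which is therefore unknown. Actb, Gapdh, Eef1a1, B2m, Tmsb4x and Ubb, which every cell uses, were at 479.17 TPM or more in every library. The microglial markers were high in every group (16352 to 56478 summed TPM over 8 genes). The 8 neutrophil markers summed to at most 18 TPM outside 1 library, day 7 Tdt- replicate 3, which held 178.93 TPM. Tests are limma on log2(TPM + 1), with Benjamini-Hochberg adjustment over all genes of a table. A change called here has an adjusted p under 0.05. Changes are given as log2 estimates with their standard error (SE), on a scale that understates the change of genes near 0. The labels do not say which libraries are separate animals, so p-values measure the spread between these libraries, which may be technical.

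In Tdt+ microglia of the injured cortex the mitosis genes were high at day 3, lower at day 7 and low from day 14 on, while most S phase genes stayed detectable throughout. The mitosis score was 4.34 ± 0.20 (SD, n = 5) at day 3, 3.03 ± 0.39 (n = 5) at day 7, 1.43 ± 0.16 (n = 5) at day 14 and 1.10 ± 0.20 (n = 4) at day 28. The S phase score was 4.16 ± 0.25, 3.45 ± 0.25, 2.93 ± 0.12 and 2.84 ± 0.27 in the same order. The mitosis scores of the 4 days did not overlap except at days 14 and 28, where they ran from 1.19 to 1.64 and from 0.88 to 1.27. All 24 mitosis genes reached 1 TPM in every day 3 library, 22 to 24 did at day 7, 9 to 16 at day 14 and 6 to 12 at day 28. Of the 17 S phase genes, 17 did at day 3, 15 or 16 at day 7, 13 to 16 at day 14 and 12 to 16 at day 28.

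**Figure D1:**
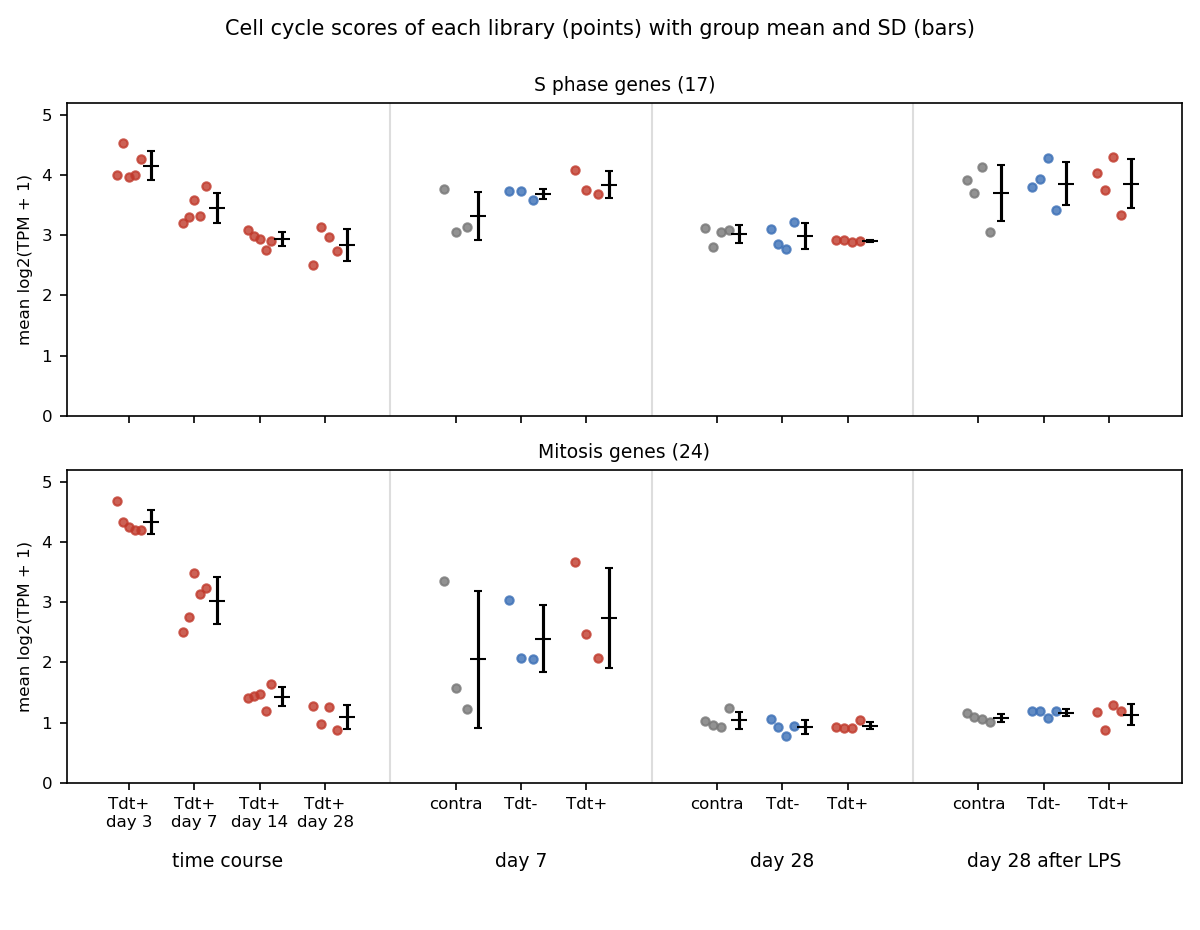
Mean log2(TPM + 1) of the 17 S phase genes (upper panel) and the 24 mitosis genes (lower panel) in each of the 52 libraries, with the mean and SD of each group beside its points. Groups of different tables were not tested against each other. In the time course the mean mitosis score is 4.34 at day 3 and 1.10 at day 28, and the S phase score after LPS lay between 3.05 and 4.30.

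From day 3 to day 28, 24 of 24 mitosis genes and 12 of 17 S phase genes were lower and no member was higher. Among all 15316 genes tested, 35.6% were higher and 7.97% lower. The median log2 change was -3.14 over the mitosis genes and -1.35 over the S phase genes, against 0.56 over all genes. With quantile normalization, which puts the median of all genes at 0.09, 40 of 41 members were lower, and the split of all called genes was 2021 higher and 2026 lower in place of 5460 and 1221.

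Ube2c, the ubiquitin-conjugating enzyme of the anaphase-promoting complex, had the largest estimate of any member. Its TPM was 80.35, 41.2, 58.06, 64.08 and 35.07 at day 3, then 5.27, 3.59, 19.51, 11.29 and 32.41 at day 7. It was 0, 1.36, 0, 0 and 1.69 at day 14 and 0, 0, 0 and 0.99 at day 28. All day 3 libraries lay above all others, and no library after day 7 exceeded 1.69. From day 3 to day 28 it fell by 5.52 ± 0.50 (SE, adjusted p 2.99e-08). Ccnb2, a B-type cyclin that activates Cdk1 in mitosis, also fell from day 3 to day 7 and from day 7 to day 14. It held 54.1, 29.3, 36.23, 44.12 and 36.3 TPM at day 3, 8.01, 4.37, 12.59, 15.81 and 8.38 at day 7, 0, 0.87, 0.32, 1.2 and 1.39 at day 14, and 2.95, 0, 1.49 and 0 at day 28. The groups of days 3, 7 and 14 did not overlap. Its fall over the whole course was 4.50 ± 0.42 (adjusted p 4.93e-08).

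Top2a, the topoisomerase that untangles chromosomes before they separate, was more uneven at day 7. It held 26.75, 17.48, 16.46, 11.13 and 28.57 TPM at day 3, 8.26, 2.77, 26.11, 9.27 and 14.32 at day 7, 1.9, 0.55, 1.57, 0 and 0.23 at day 14, and 0, 0.45, 0.51 and 0 at day 28. Day 7 replicates 3 and 5 reached the range of day 3, and all day 14 and 28 libraries lay below every earlier library. It fell by 4.04 ± 0.46 from day 3 to day 28 (adjusted p 7.55e-07). Mki67, which encodes the Ki-67 antigen found on chromosomes of cycling cells, held 13.69, 8.43, 15.28, 9.59 and 8.94 TPM at day 3 and 3.75, 3.12, 7.4, 6.65 and 3.92 at day 7. At day 14 it held 0.65, 0.06, 1.33, 0 and 0.06 and at day 28 1.3, 0, 0.26 and 0. The days 3, 7 and 14 did not overlap, and the fall to day 28 was 3.19 ± 0.36 (adjusted p 6.89e-07).

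Among the other mitotic regulators, Birc5 (survivin) fell by 4.85 and Aurkb by 4.05 from day 3 to day 28; both proteins belong to the chromosomal passenger complex. Ccnb1 fell by 3.85, Plk1, a kinase of mitotic entry, by 3.64, and Ccna2, the cyclin of S phase and G2, by 3.33. The spindle genes also fell, Tpx2 by 3.46, Kif20a by 3.32, Prc1 by 3.08, Nusap1 by 2.77 and Kif11 by 1.87. So did the kinetochore and checkpoint genes Bub1b by 2.97, Cenpa by 2.79, Cenpe by 2.62, Bub1 by 2.56 and Cenpf by 2.14, along with Cdc20, the activator of the anaphase-promoting complex, by 2.73, and the kinase Aurka by 2.00. The adjusted p of these genes ranged from 3.62e-07 to 0.00152.

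Some members of the mitosis list were still present at day 28. Stmn1 encodes stathmin, a microtubule-destabilising protein that also acts outside mitosis. It held 155.06, 198.94, 174.39, 157.23 and 152.01 TPM at day 3, 45.54, 47.76, 66.79, 42.13 and 54.74 at day 7, 32.98, 13.82, 25.75, 16.44 and 21.6 at day 14, and 14.12, 15.32, 7.62 and 5.27 at day 28. Only days 14 and 28 overlapped. It fell by 3.96 ± 0.26 from day 3 to day 28, with the smallest p of any member (adjusted p 4.61e-10). Cdk1, the mitotic kinase itself, held 103.92, 88.18, 56.51, 70.49 and 79.17 TPM at day 3 and 34.41, 16.02, 42.28, 30.47 and 45.55 at day 7. It then held 38.34, 14.47, 11.81, 61.43 and 18.97 at day 14 and 10.78, 13.13, 3.65 and 15.85 at day 28. The day 7 and day 14 ranges overlapped, with day 14 replicate 4 the highest of both, and the fall from day 3 to day 28 was 2.89 ± 0.42 (adjusted p 1.53e-05). Cks2, a small subunit bound to Cdk1, held 43.05, 31.32, 25.5, 34.24 and 34.74 TPM at day 3, 20.68, 26.13, 22.36, 18.7 and 12.54 at day 7, 25.99, 29.38, 20.77, 26.03 and 11.28 at day 14, and 7.02, 16.23, 14.58 and 4.79 at day 28. It fell by 1.70 ± 0.31 over the course (adjusted p 0.000206).

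**Figure D2:**
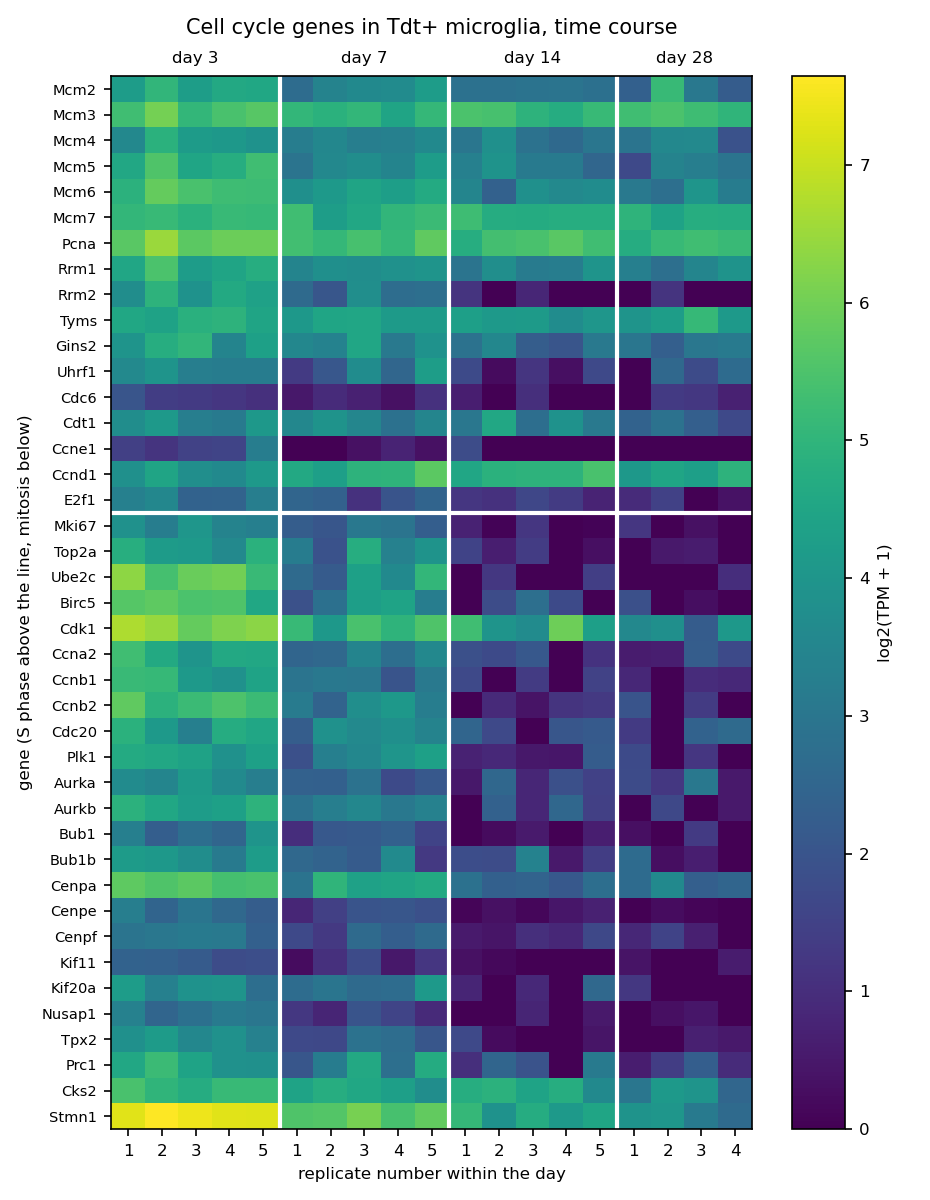
Log2(TPM + 1) of each of the 41 genes (rows) in each of the 19 time course libraries (columns, by day and replicate number). From day 14 on the mitosis rows are low, with Stmn1, Cks2 and Cdk1 the highest of them, while Mcm3, Mcm7, Pcna, Tyms and Ccnd1 stay well above 0 on every day.

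Rrm2 is the cell cycle regulated subunit of ribonucleotide reductase, which makes nucleotides for DNA. It held 12.54, 29.92, 13.85, 24.05 and 19.64 TPM at day 3, 5.26, 3.12, 12.6, 5.65 and 5.99 at day 7, 1.23, 0, 0.76, 0 and 0 at day 14, and 0, 1.23, 0 and 0 at day 28. Day 7 replicate 3 alone touched the day 3 range. Rrm2 fell by 4.03 ± 0.40 from day 3 to day 28 (adjusted p 9.71e-08), while Rrm1, the other subunit of that enzyme, fell by 1.32 ± 0.28 (adjusted p 0.000858).

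Within the MCM helicase, Mcm6, Mcm5, Mcm2 and Mcm4 were lower at day 28 and Mcm3 and Mcm7 were not called on TPM as deposited. With quantile normalization both were called lower (Mcm3 at -0.75, adjusted p 0.00531, and Mcm7 at -0.91, adjusted p 0.00137), as were Tyms (adjusted p 0.00484) and Cdc6 (adjusted p 0.0354). Mcm4 fell by 1.11 ± 0.34 (adjusted p 0.0114). Mcm6 held 29.14, 56.04, 42.87, 37.53 and 36.52 TPM at day 3, 12.93, 16.25, 21.28, 18.34 and 24.72 at day 7, 10.17, 4.14, 13.34, 11.05 and 12.14 at day 14, and 7.46, 5.9, 14.9 and 8.32 at day 28. Day 3 lay above all later libraries, and the fall to day 28 was 2.07 ± 0.30 (adjusted p 1.43e-05). Mcm5 held 23.04, 45.59, 21.63, 26.3 and 38.46 TPM at day 3, 6.69, 10.93, 12.37, 9.82 and 17.68 at day 7, 9.07, 14.23, 7.86, 7.7 and 4.72 at day 14, and 2.24, 9.65, 8.64 and 6.69 at day 28. Here too day 3 did not overlap any later day, and the fall was 2.11 ± 0.36 (adjusted p 8.22e-05). Mcm2 held 17.53, 31.78, 17.92, 23.63 and 22.6 TPM at day 3, 5.46, 9.61, 11.39, 11.93 and 17.85 at day 7, 6.18, 6.29, 6.56, 6.73 and 6.1 at day 14, and 4.06, 34.52, 7.29 and 3.64 at day 28. Day 28 replicate 2 was the highest Mcm2 value of the whole course, and the fall was 1.35 ± 0.43 (adjusted p 0.0159). Mcm3 held 38.02, 65.34, 32.18, 42.83 and 49.8 TPM at day 3 and 38.21, 43.99, 37.86 and 30.71 at day 28, and its ranges overlapped (log2 change -0.24 ± 0.21, adjusted p 0.359). Mcm7 was at -0.35 ± 0.20 (adjusted p 0.167).

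Of the other replication factors, Gins2, a subunit of the active helicase, fell by 1.45 ± 0.37 from day 3 to day 28, and Cdt1, which loads the helicase on origins, fell by 1.36 ± 0.36. The loading factor Cdc6 was low throughout and was not called (-0.58 ± 0.35, adjusted p 0.188). Uhrf1, which keeps DNA methylation through replication, fell by 1.70 ± 0.58 (adjusted p 0.0214). Tyms, which makes thymidylate, held 22.69, 20.3, 27.84, 29.67 and 21.03 TPM at day 3 and 14.47, 17.97, 33.92 and 16.06 at day 28, and it was not called (-0.29 ± 0.22, adjusted p 0.301). Pcna, the sliding clamp of DNA polymerases, held 50.38, 88.98, 51.55, 59.76 and 59.93 TPM at day 3, 39.51, 32.82, 42.13, 32.78 and 53.47 at day 7, 26.4, 40.39, 42.67, 50.84 and 38.25 at day 14, and 25.49, 34.21, 38.22 and 35.08 at day 28. It fell by 0.87 ± 0.20 (adjusted p 0.00189) and stayed among the most abundant members at day 28.

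E2f1, the transcription factor of the S phase program, held 9.02, 10.7, 4.29, 4.42 and 8.62 TPM at day 3, 4.62, 4.23, 1.12, 2.94 and 4.48 at day 7, 1.3, 1.11, 2.1, 1.52 and 0.7 at day 14, and 0.9, 1.78, 0 and 0.29 at day 28. Day 3 lay above days 14 and 28, and the fall was 2.30 ± 0.39 (adjusted p 7.8e-05). Ccne1, cyclin E1, held 1.71, 1.23, 1.87, 1.98 and 8.44 TPM at day 3 and was listed at 0 in all 4 day 28 libraries (adjusted p 0.00221). Ccnd1, cyclin D1, links growth signals to G1 progression. It held 13.37, 21.2, 12.83, 11.36 and 16.14 TPM at day 3, 23.56, 18.75, 29.48, 30.09 and 51.82 at day 7, 22.05, 28.36, 29.96, 29.95 and 43.07 at day 14, and 15.71, 21.69, 18.91 and 29.59 at day 28. From day 3 to day 28 it was not called (0.49 ± 0.26, adjusted p 0.139).

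Between day 3 and day 7, 16 of 24 mitosis genes and 7 of 17 S phase genes fell and 1 S phase gene, Ccnd1, rose, with 4.42% of 15316 genes lower and 9.93% higher. The median log2 change was -1.28 over the mitosis genes and -0.69 over the S phase genes, against 0.18 over all genes. The largest falls of the mitosis genes were Ube2c by 2.19 ± 0.47, Birc5 by 2.06 ± 0.55, Ccnb2 by 2.00 ± 0.40, Ccnb1 by 1.70 ± 0.39, Stmn1 by 1.70 ± 0.25 (adjusted p 6.18e-05) and Nusap1 by 1.66 ± 0.31. The S phase falls were Rrm2 by 1.52 ± 0.38, Ccne1 by 1.49 ± 0.40, Mcm5 by 1.36 ± 0.34, Mcm6 by 1.07 ± 0.28, Rrm1 by 0.92 ± 0.27, Pcna by 0.61 ± 0.19 and Mcm3 by 0.58 ± 0.20 (adjusted p 0.0497). Ccnd1 rose by 0.94 ± 0.25 (adjusted p 0.0132), and 4 of its 5 day 7 libraries lay above every day 3 library. Mki67 fell by 1.05 ± 0.34 (adjusted p 0.0437) and Top2a was not called (-0.89 ± 0.44, adjusted p 0.198).

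The count of 24 called members at this step was 15 without day 7 replicate 1, whose mitosis score of 2.50 was the lowest of its day, and 9 with a pseudocount of 0.1. The number of all genes called in these settings is not given here. Mki67 lost its call in 12 of 24 alternatives (adjusted p 0.0508 to 0.347), Pcna in 7 of 24 (0.0623 to 0.114) and Ccnd1 with quantile normalization (0.0533). Other cell markers moved in the same step. The 6 border macrophage markers summed to 145 to 209 TPM at day 3 and 27.3 to 39.3 at day 7, with Cd163 and Lyve1 at 0 in every library from day 7 on. The 6 monocyte markers summed to 14.7 to 410 TPM at day 3 and 10.7 to 70.1 at day 7, with Ly6c2 and Chil3 at 0 throughout the time course, and the 8 microglial markers summed to 16352 to 19726 and 27948 to 32333 TPM. Day 3 replicate 1 held both the highest monocyte sum and the highest mitosis score, 4.68. The 5 astrocyte markers summed to 23.5 to 34.1 TPM at day 3, 36 to 78.2 at day 7, 76.4 to 157 at day 14 and 110 to 120 at day 28. The 5 erythroid markers summed to 405.67 TPM in day 14 replicate 2 and to at most 12.74 TPM at days 3, 7 and 28. The part of these cells in the change was not tested.

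Between day 7 and day 14, 17 of 24 mitosis genes fell and, of the 17 S phase genes, only Rrm2 did, with 1.54% of all genes lower and 4.46% higher. The medians were -1.72 over the mitosis genes, -0.35 over the S phase genes and 0.14 over all genes. Ube2c fell by 3.04 ± 0.47, Top2a by 2.67 ± 0.44, Ccnb2 by 2.59 ± 0.40 (adjusted p 0.000385), Plk1 by 2.44 ± 0.45, Kif20a by 2.18 ± 0.46 and Mki67 by 2.10 ± 0.34 (adjusted p 0.000686). Rrm2 fell by 2.40 ± 0.38 (adjusted p 0.000446). Mcm6 was at -0.87 ± 0.28 (adjusted p 0.0735, and 0.0367 with quantile normalization), Pcna at -0.02 ± 0.19 and Ccnd1 at 0.05 ± 0.25, neither called. In this step the border macrophage sum was 27.3 to 39.3 TPM at day 7 and 12.5 to 31.2 at day 14, the monocyte sum was 10.7 to 70.1 and 5.39 to 25.5, and the microglial sum was 27948 to 32333 and 35517 to 37812.

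Between day 14 and day 28, 2 mitosis genes fell and no S phase gene was called, with 2.21% of all genes lower and 4.06% higher. Cks2 fell by 1.10 ± 0.31 (adjusted p 0.0406) and Stmn1 by 1.04 ± 0.26 (adjusted p 0.0208). At this step 1 S phase gene and 3 mitosis genes had an unadjusted p under 0.05, against 21.9% of all genes. Cdt1 had the smallest p of the S phase genes, at -1.16 ± 0.36 (adjusted p 0.057), and Cdk1 (-1.22 ± 0.42, adjusted p 0.0863) and Ccnd1 (-0.50 ± 0.26, adjusted p 0.273) did not pass either. Mki67 (-0.04 ± 0.36), Top2a (-0.48 ± 0.46), Pcna (-0.23 ± 0.20) and Mcm6 (-0.13 ± 0.30) were not called. The 2 calls were down to 1 without day 14 replicates 2, 3 or 4 or day 28 replicates 1 or 3, and to 0 without day 28 replicate 4, which held the lowest Cks2 and Stmn1 values of the course. The medians of the list were -0.23 for mitosis, -0.11 for S phase and 0.18 for all genes.

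**Figure D3:**
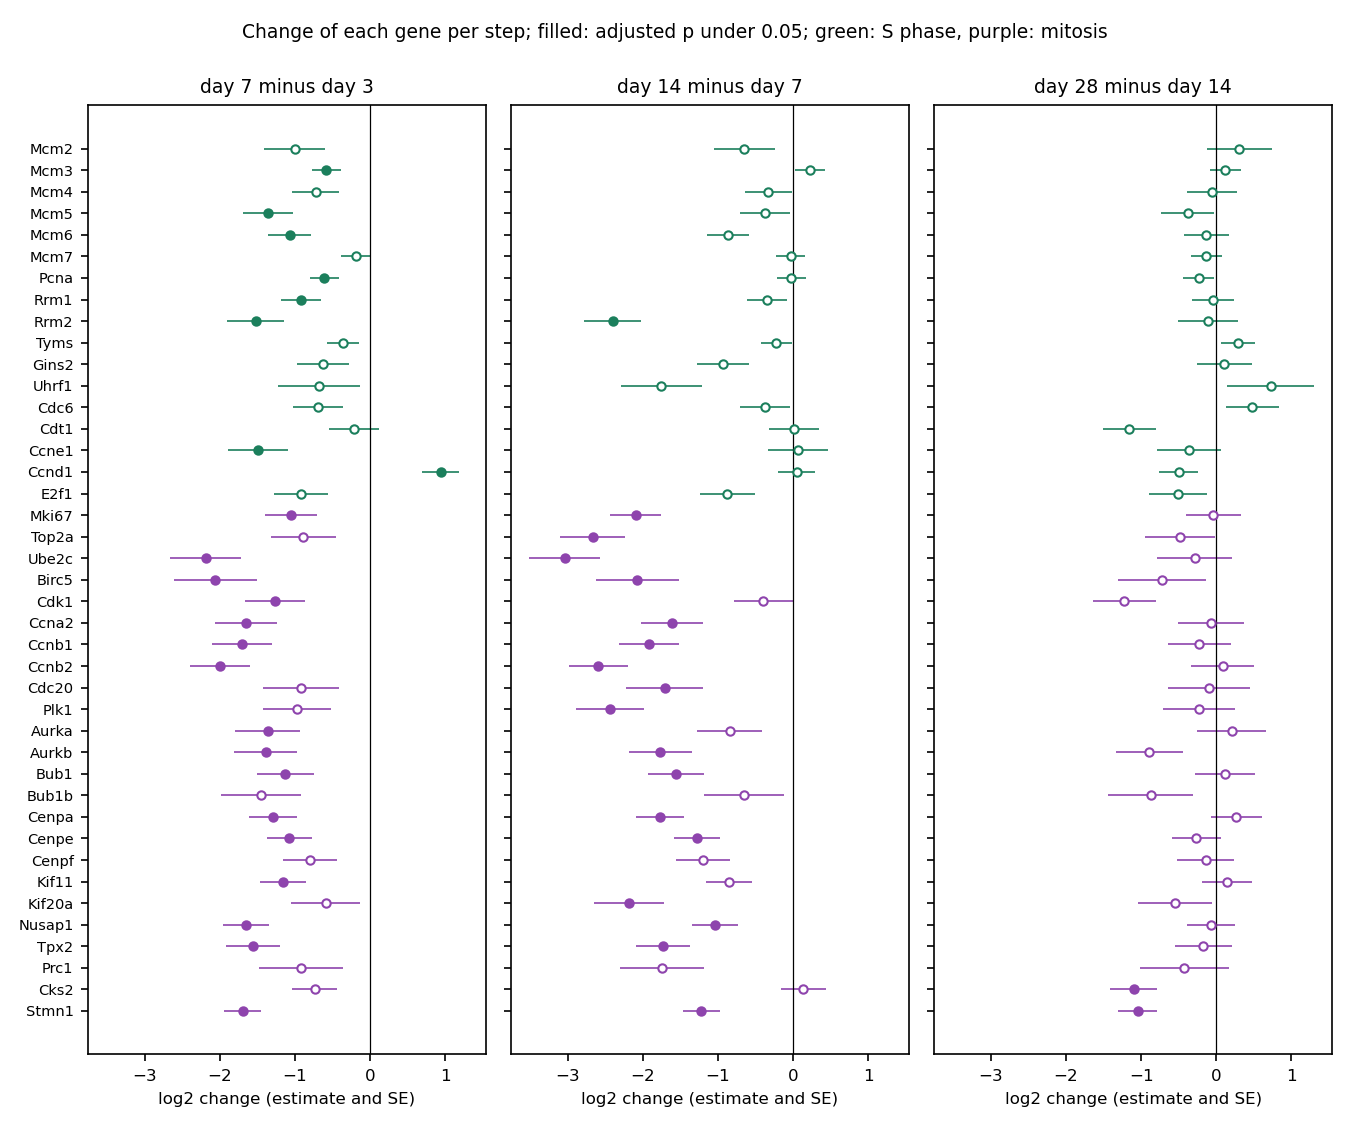
Log2 change ± SE of each of the 41 genes (rows) between neighbouring days of the time course, from limma on log2(TPM + 1); filled points passed an adjusted p of 0.05, green marks S phase and purple mitosis genes. The falls of the mitosis genes are spread over both of the first steps, 16 and 17 genes called, and the step from day 14 to day 28 has 2 filled points.

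Further genes of the cycle were counted in the same fits. Of 15316 genes, 4.42%, 1.54% and 2.21% were lower from days 3 to 7, 7 to 14 and 14 to 28. From day 3 to day 28, 7.97% were lower and 35.6% higher. Of 40 further mitosis genes, 16 fell from day 3 to day 7, 15 from day 7 to day 14, 1 from day 14 to day 28 and 35 from day 3 to day 28, where Cdca3 fell by 4.40, the kinase Pbk by 4.17, the phosphatase Cdkn3 by 4.12 and the spindle gene Ckap2 by 3.57. Of 32 further replication genes, 3, 2, 1 and 16 fell in the same order and 1 rose (Slbp, the histone mRNA binding protein, by 0.45 from day 3 to day 28). The rise of Slbp was below the median of 0.56 over all genes. With quantile normalization Slbp was at -0.02 (adjusted p 0.941) and was not called. Hells fell by 2.62, the chromatin assembly factor subunit Chaf1b by 2.22 and the polymerase subunit Pole by 2.07 over the whole course.

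Among 15 genes for other G1 cyclins, kinases and E2F factors, 4 rose and 3 fell from day 3 to day 28, where 35.6% of all genes were higher and 7.97% lower. With quantile normalization 1 of the 15 was higher and 7 were lower, and Lin54, E2f3 and E2f4 were no longer called. Ccnd3, cyclin D3, rose by 2.22 ± 0.21 (adjusted p 6.17e-08), Lin54, a DREAM subunit that binds CHR sites, by 1.30, E2f3 by 1.17 and E2f4 by 0.98. E2f7 and E2f8 fell by 2.51 and 2.46 and Ccnd2, cyclin D2, by 1.65. The step of Ccnd3 was between day 7 and day 14, where it rose by 1.83 ± 0.20 (adjusted p 1.19e-05).

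Of 16 brakes on the cycle, 15 were tested, and 8 rose and 1 fell from day 3 to day 28, beside the same shares of all genes. The median of the brakes was 0.78, against 0.56 over all genes, and with quantile normalization 4 were higher and 3 lower, with Cdkn1b no longer called. Btg2, an antiproliferative gene, rose by 2.23 ± 0.13 (adjusted p 7.05e-11), Cdkn1c, the CDK inhibitor p57, by 2.21, Ccng2, an atypical cyclin of non-dividing cells, by 1.87 and Cdkn1b, the CDK inhibitor p27, by 1.03. Cdkn1a, the CDK inhibitor p21, fell by 2.70 ± 0.28 (adjusted p 1.49e-07). Of 7 growth signal genes, 6 were tested. Igf1 fell by 6.49 ± 0.38 (adjusted p 7.92e-11) and Csf1 by 1.01, while Tgfb1 rose by 1.86, the myeloid transcription factor Irf8 by 0.68 and the receptor Csf1r by 0.55. The last 2 changes lay close to the median of 0.56 over all genes.

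At day 7 in the table with both sides of the brain, no member was called between Tdt+, Tdt- and contralateral microglia. Of 12637 genes tested, 0.0712% were called between Tdt+ and contralateral, 0.0158% between Tdt+ and Tdt- and 0.00791% between Tdt- and contralateral. By unadjusted p under 0.05, 3 S phase genes and 1 mitosis gene differed between Tdt+ and contralateral, 1 and 0 between Tdt+ and Tdt-, and 2 and 0 between Tdt- and contralateral, against 7.18%, 5.24% and 5.68% of all genes. The medians for Tdt+ against contralateral were 0.54 over the mitosis genes and 0.44 over the S phase genes, against -0.01 over all genes. In that comparison 22 of 24 mitosis and 11 of 17 S phase estimates were above 0. Between Tdt- and contralateral 17 and 11 were, and between Tdt+ and Tdt- 18 and 10. The share of all genes above 0 was not counted. Genes of a class were measured in the same libraries, so their directions are not independent of each other. Both comparisons with contralateral libraries use the same 3 controls.

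E2f1 had the smallest p of the members in both comparisons with contralateral libraries. It held 0.8, 0.42 and 0 TPM in contralateral, 3.76, 5.93 and 6.18 in Tdt- and 4.13, 3.92 and 4.61 in Tdt+ cells. Every library of the injured cortex lay above every contralateral library. The estimate was 1.93 ± 0.44 for Tdt+ (adjusted p 0.222) and 2.18 ± 0.44 for Tdt- (adjusted p 0.548) against contralateral, and neither passed. Mcm2 held 7.64, 10.05 and 12.5 TPM in contralateral, 12.56, 20.15 and 35.52 in Tdt- and 28.82, 15.74 and 28.17 in Tdt+ cells. The contralateral libraries again lay below the others, by as little as 0.06 TPM, and the estimates were 1.17 ± 0.40 (adjusted p 0.541) and 1.01 ± 0.40 (adjusted p 0.872).

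In the mitosis class the smallest p values for Tdt+ against contralateral were those of Bub1b, a spindle checkpoint kinase (2.04 ± 0.78, adjusted p 0.596), and Birc5 (1.85 ± 1.09, adjusted p 0.786). Between Tdt+ and Tdt- they were those of Cks2 (0.61 ± 0.30, adjusted p 0.916) and Top2a (1.06 ± 0.75, adjusted p 0.932), with Rrm1 (1.02 ± 0.37, adjusted p 0.862) and Mcm6 (-0.41 ± 0.26, adjusted p 0.932) in the S phase class. Between Tdt- and contralateral they were those of Bub1 (1.34 ± 0.74, adjusted p 0.921) and Bub1b (1.28 ± 0.78, adjusted p 0.926). Mki67 held 4.68, 0.21 and 0 TPM in contralateral, 2.76, 1.42 and 0.08 in Tdt- and 3.92, 0.17 and 0.84 in Tdt+ cells, and its largest estimate was 0.21 ± 0.80. Top2a held 5.91, 1.45 and 0.19, 2.63, 1.42 and 2.53, and 14.17, 6.3 and 1.54 TPM in the same order, and for Tdt+ against contralateral it was at 1.27 ± 0.75 (adjusted p 0.788). Pcna (-0.00 ± 0.25), Mcm6 (-0.00 ± 0.26) and Ccnd1 (-0.38 ± 0.40) were not called in that comparison.

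The spread at day 7 followed the library number. The mitosis score of the library numbered 1 was 3.35 in contralateral, 3.03 in Tdt- and 3.67 in Tdt+ cells, and those numbered 2 and 3 lay at 1.58 and 1.23, 2.07 and 2.06, and 2.48 and 2.08. The library numbered 1 was the highest of its group in all 3 groups for 13 of 24 mitosis and 5 of 17 S phase genes, against 7.32% of all genes. Ube2c, for example, held 14.89, 0 and 0 TPM in contralateral, 9.09, 0 and 1.13 in Tdt- and 7.57, 3.35 and 1.14 in Tdt+ cells. Rrm2 held 26.99, 2.14 and 0, 18.24, 9.07 and 2.91, and 22.5, 10.91 and 8.06 TPM in the same order. The border macrophage sum of the libraries numbered 1 was also the highest of each group, at 189, 201 and 333 TPM, and its part was not tested. Without the trio numbered 1 the difference of the mitosis score between Tdt+ and contralateral was 0.88 in place of 0.69, and still no member was called. The labels do not say what equal numbers share. In the time course table, Tdt+ libraries of day 7 had mitosis scores of 2.50 to 3.48 against 2.08 to 3.67 here, with no test across tables.

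**Figure D4:**
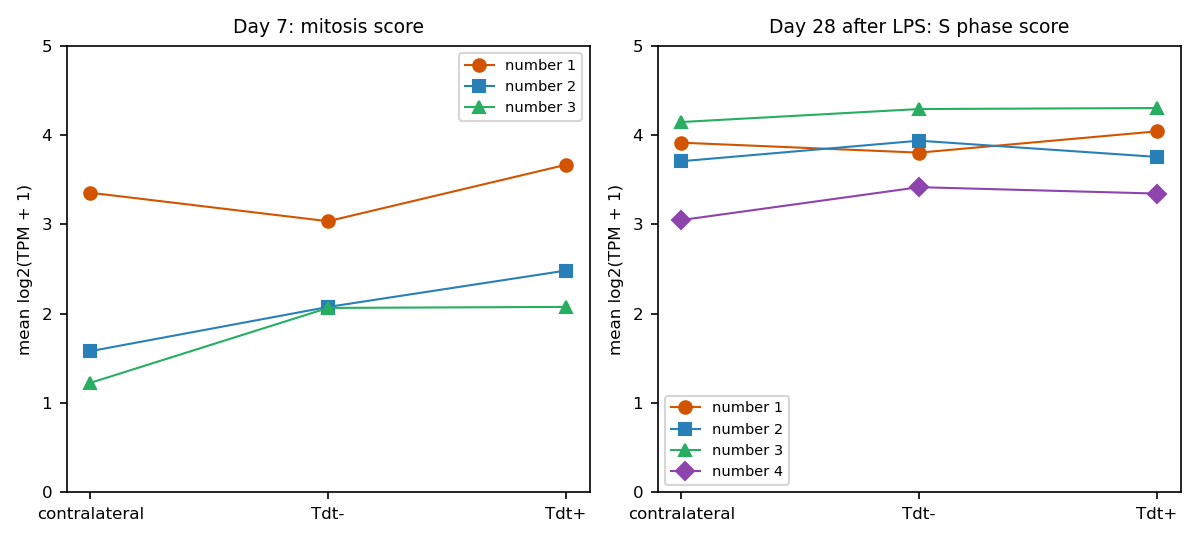
Mitosis score at day 7 (left) and S phase score at day 28 after LPS (right), as mean log2(TPM + 1), in contralateral, Tdt- and Tdt+ libraries; lines join libraries with the same number. The number 1 libraries are highest at day 7 (3.03 to 3.67), and after LPS the number 4 libraries are lowest (3.05 to 3.41).

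At day 28 no difference in the cell cycle genes was called between the 3 populations, and most mitosis genes were at or near 0. Only 14 of 17 S phase and 10 of 24 mitosis genes reached 1 TPM in at least 4 libraries and were tested. No member and 0% of 12710 genes were called in any of the 3 comparisons. Unadjusted p was under 0.05 for Pcna between Tdt+ and contralateral and for Mcm2 between Tdt+ and Tdt-, and for no member between Tdt- and contralateral, against 4.6%, 3.72% and 4.52% of all genes. The mitosis score was 1.03 ± 0.14 for contralateral, 0.92 ± 0.11 for Tdt- and 0.95 ± 0.06 for Tdt+ cells (SD, n = 4 each), and the S phase score was 3.02 ± 0.15, 2.99 ± 0.21 and 2.91 ± 0.015.

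Mki67 was listed at 0 in 11 of 12 libraries and at 0.04 TPM in Tdt- replicate 2, and Ube2c and Bub1 were listed at 0 in all 12. Cdk1, Cks2 and Stmn1 were present in all 12 libraries. Cdk1 held 26.03, 10.88, 9.84 and 27.16 TPM in contralateral, 15.81, 8.77, 17.01 and 13.09 in Tdt- and 8.44, 37.1, 8.76 and 11.63 in Tdt+ cells. The 3 groups overlapped. Pcna held 42.39, 56.12, 46.02 and 27.52 TPM in contralateral and 29.96, 27.36, 34.91 and 23.62 in Tdt+ libraries, with overlap (-0.52 ± 0.23, adjusted p 0.991). Mcm2 held 4.59, 3.16, 4.32 and 3 TPM in contralateral, 2.56, 1.63, 1.78 and 5.37 in Tdt- and 3.3, 7.47, 11.93 and 5.67 in Tdt+ cells, and for Tdt+ against Tdt- it was at 1.06 ± 0.41 (adjusted p 0.999). The other smallest p values were those of Cks2 and Aurkb for Tdt+ against contralateral (0.48 ± 0.28 and -1.0 ± 0.64, adjusted p 0.991 for both), Mcm2 in that comparison (0.67 ± 0.41, adjusted p 0.991), Mcm4, Plk1 and Ccna2 for Tdt+ against Tdt- (-0.53 ± 0.31, -0.88 ± 0.54 and 0.68 ± 0.49, adjusted p 0.999) and Aurka, Aurkb, Tyms and Pcna for Tdt- against contralateral (1.12 ± 0.60, -1.11 ± 0.64, -0.35 ± 0.25 and -0.29 ± 0.23, adjusted p 0.987). Mcm6 ranged from -0.47 to 0.40 and Ccnd1 from -0.07 to 0.29 over the 3 comparisons.

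After LPS at day 28, no member was called between the 3 populations, of 15 S phase and 12 mitosis genes tested. Of 13397 genes, 1.35% were called between Tdt+ and contralateral, 0% between Tdt+ and Tdt- and 0.0149% between Tdt- and contralateral. Libraries of the same number deviated together in the first 2 comparisons, and with the number as a block 930 and 62 genes were called, against 181 and 0 without it, and still no member. In Tdt- against contralateral, where the numbers did not pair by the same measure, the block gave 119 genes in place of 2 and no member. Ccne1 had the smallest p without the block. It held 0.41, 0.82, 1.16 and 1.13 TPM in contralateral, 1.03, 0.74, 4.98 and 2.38 in Tdt- and 4.7, 1.64, 3.11 and 2.6 in Tdt+ cells. All Tdt+ libraries lay above all contralateral libraries, and the estimate was 1.06 ± 0.40 (adjusted p 0.306), the only member with an unadjusted p under 0.05 in the 3 comparisons without the block, against 11.5%, 4.61% and 5.75% of all genes. With the block, unadjusted p was under 0.05 for 4 S phase genes between Tdt+ and contralateral, against 21.1% of all genes. Besides Ccne1 these were Mcm4 (-0.34 ± 0.13, adjusted p 0.169), Tyms (-0.45 ± 0.19, adjusted p 0.196) and E2f1 (0.74 ± 0.32, adjusted p 0.211). Between Tdt+ and Tdt- it was under 0.05 for Mcm4, Tyms and Cks2, against 11% of all genes, with adjusted p from 0.321 to 0.451.

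The values that follow are from the fit without the block, which ignores what same-numbered libraries share. For Tdt+ against contralateral, the SE of Mcm4 was 0.26 in that fit and 0.13 with the block. The next smallest p values for Tdt+ against contralateral were those of Tyms (-0.45 ± 0.27, adjusted p 0.591), Top2a (0.49 ± 0.33, adjusted p 0.654) and Stmn1 (-0.46 ± 0.35, adjusted p 0.699). Pcna (0.09 ± 0.17), Ccnd1 (0.08 ± 0.21) and Mcm6 (-0.06 ± 0.36) were not called either. Between Tdt+ and Tdt- they were those of Cks2 (-0.42 ± 0.25) and Stmn1 (-0.55 ± 0.35), and Tyms (-0.42 ± 0.27) and Mcm4 (-0.29 ± 0.26), and between Tdt- and contralateral those of Plk1 (0.38 ± 0.38), Cks2 (0.22 ± 0.25), Ccne1 (0.65 ± 0.40) and Pcna (0.25 ± 0.17). Mki67 was at most 0.31 TPM in the 12 libraries and was not tested.

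Set side by side with day 28 without LPS, the S phase score was higher after LPS in all 3 populations. The mitosis score overlapped its level without LPS in contralateral and Tdt+ cells, while in Tdt- cells it was 1.08 to 1.20 after LPS and 0.78 to 1.05 without. The S phase score was 3.70 ± 0.47 for contralateral, 3.86 ± 0.36 for Tdt- and 3.86 ± 0.41 for Tdt+ cells (SD, n = 4 each), with a range of 3.05 to 4.30 against 2.77 to 3.22 without LPS. The mitosis score was 1.08 ± 0.06, 1.16 ± 0.06 and 1.13 ± 0.18, with a range of 0.87 to 1.29 against 0.78 to 1.24. The libraries with and without LPS are held in separate tables, so LPS and table cannot be told apart and no test is given.

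Mcm2 held 40, 31.92, 54.79 and 7.78 TPM in contralateral, 34.89, 37.05, 60.11 and 8.57 in Tdt- and 38.28, 28.26, 51.24 and 11.14 in Tdt+ cells after LPS, against 1.63 to 11.93 in the 12 libraries without LPS. The libraries numbered 1 to 3 all lay above that range and those numbered 4 within it. Mcm5 held 32.13, 27.77, 55.99 and 10.21, 32.04, 36.41, 57.18 and 7.22, and 34.22, 31.1, 60.73 and 8.09 TPM in the same order, against 5.3 to 9.69. Mcm6 held 46.56, 49.3, 50.78 and 21.7, 47, 51.35, 61.49 and 21.81, and 50.15, 34.89, 52.19 and 23.34 TPM, against 4.68 to 23.93. For these genes the libraries numbered 1 to 3 lay above every library without LPS, and of those numbered 4 only the Mcm5 value of the contralateral one did. This split by number was made after seeing the data. The share of all genes in the same position was not counted, so it has no background beside it.

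Uhrf1 had a median of 7.22 TPM after LPS and 0.85 without, Cdt1 25.63 and 9.49, Mcm4 23.08 and 10.44, and Ccnd1 18.895 and 9.98. Mcm3 differed less, with a median of 79.49 TPM after LPS (26.46 to 122.54) and 71.43 without (47.2 to 103.69). So did Mcm7, with 42.81 (14.06 to 50.9) and 35.66 (18.25 to 46.13). Rrm2 and Cdc6 were near 0 in both, with medians of 0.175 and 0.3 TPM after LPS and 0 without. Tyms was the only S phase gene with a lower median, at 16.29 TPM after LPS (10.34 to 27.55) and 37.1 without (22.68 to 58.47). Of the 17 S phase genes 16 had a higher median after LPS. The share of all genes with a higher median was not counted, so this count has no background beside it. For none of the 17 did all 12 LPS libraries lie above all 12 others, which 6.36% of 14602 genes did. Of the mitosis genes, Cdk1 had a median of 6.76 TPM after LPS and 12.36 without, Stmn1 11.175 and 13.54, Cks2 24.155 and 19.105 and Top2a 1.185 and 0, while Ube2c and Bub1 had a median of 0 in both.

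**Figure D5:**
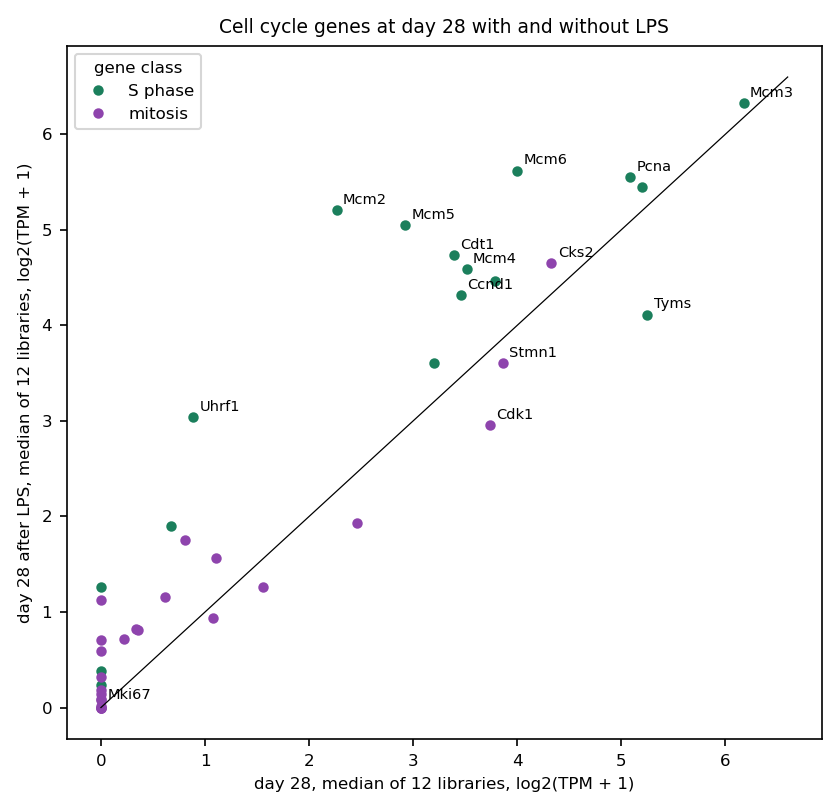
Median TPM of each of the 41 genes over the 12 libraries at day 28 (x axis) and the 12 libraries at day 28 after LPS (y axis), both as log2(TPM + 1); the line marks equal medians. Of the 17 S phase genes (green) 16 lie above the line and Tyms below it, and 16 of 24 mitosis genes (purple) lie above it, most of them near 0 on both axes. The share of all genes above the line was not counted.

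The libraries numbered 4 stood apart within the LPS table. They were the lowest of their group in all 3 groups for 8 of 15 S phase genes, a position that 20.2% of all genes held, and those numbered 3 were the highest in all 3 groups for 7 of 15, against 3.08%. Their S phase scores were 3.05 in contralateral, 3.41 in Tdt- and 3.34 in Tdt+ cells, against 3.71 to 4.30 for the numbers 1 to 3, so the contralateral one overlapped the range without LPS. The 8 microglial markers summed to 16865 to 24920 TPM in the libraries numbered 4 and to 21669 to 32741 TPM in the others. Over the whole table that is 16865 to 32741 TPM, against 40802 to 56478 in the libraries without LPS, and the 6 monocyte markers summed to 42.7 to 210 TPM against 8.25 to 23.6, with Chil3 at 0 in all 12 LPS libraries. Their part in the higher S phase levels was not tested.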

How the data were processed

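RNA of 52 bulk libraries, prepared with a modified SMART-Seq2 protocol from sorted microglia, was read from 4 tables of TPM that the authors deposited. Per the submitters' processing notes the tools were cutadapt 2.10, STAR 2.7.5c and RSEM 1.3.3 on GRCm38. Contralateral samples were read from the contralateral Tdt- columns. At days 7 and 28 this is an inference, since contralateral Tdt+ columns with the same numbers also exist there, and those 7 were not used. The accessibility and single-cell samples were not analysed here. Values were taken as log2(TPM + 1) and tested with limma 3.58.1 (R 4.3.3), with a trend, all groups of a table in 1 fit, genes kept that reached 1 TPM in a number of libraries equal to the smallest group size, and Benjamini-Hochberg adjustment at 0.05 over the table. The fit was also run on simulated data, with independent errors and changes only in well expressed genes. Changes of genes near 0 and libraries that deviate together were not covered, and the outcome is not given here. TPM keeps no depth, so depth and its precision are unknown, and tables are never tested against each other. Alternatives were a pseudocount of 0.1, no filter, a filter of 5 TPM, quantile normalization, a block for library number and each library left out. Same-numbered libraries were counted as paired where every residual correlation was over 0.1, which held after LPS for Tdt+ with contralateral (0.194 to 0.551) and with Tdt- (0.123 to 0.524). The main fit did not use these pairs, and results with the block are given beside it. All 41 members may be named, with full values for up to 6 rises and 6 falls that passed per class, or the 2 smallest p per class where none passed, and Mki67, Top2a, Pcna, Mcm6 and Ccnd1 throughout. Up to 4 rises and 4 falls are named in other lists, of which 1 is not reported here. The members and lists were chosen with earlier results of these data known.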

Additional observations from a re-analysis of the deposited data

Results flagged for a closer look

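Scores and named genes were tested by Dixon's ratio in 184 sets, each of 4 or 5 libraries of a group. Of these sets, 18 held a library far from the rest. Over the scores and all 41 members, 52 of 348 did. For normally distributed values chance gives about 1 in 20, but TPM of scarcely detected genes is not so distributed. Where all libraries but 1 hold the same value, the ratio flags that library whatever its size. This was so for some sets of Ccne1, Rrm2 and Ccnb2 listed below. The counts therefore cannot be compared with that rate, and whether they exceed chance was not tested. Groups of 3 libraries were not tested.

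In the time course, day 3 replicate 1 had a mitosis score of 4.68 against 4.21 to 4.34 in the other libraries of its day. Pcna was 88.98 TPM in day 3 replicate 2 (others 50.38 to 59.93), and Ccne1 was 8.44 TPM in day 3 replicate 5 (others 1.23 to 1.98) and 2.45 TPM in day 14 replicate 1 (others 0). Day 28 replicate 2 held 34.52 TPM of Mcm2 (others 3.64 to 7.29) and 1.23 TPM of Rrm2 (others 0).

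At day 28, the mitosis score of Tdt+ replicate 4 was 1.03 (others 0.91 to 0.93). Contralateral replicate 2 held 5.3 TPM of Mcm5 (others 5.61 to 5.66) and 16.84 TPM of Cdt1 (others 8.48 to 9.54), and contralateral replicate 4 held 1.01 TPM of Ccne1 (others 0). Cks2 was 25.76 TPM in Tdt- replicate 2 (others 18.25 to 19.11), and Cdk1 was 37.1 TPM in Tdt+ replicate 2 (others 8.44 to 11.63).

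After LPS, the mitosis score of Tdt- replicate 3 was 1.08 (others 1.19 to 1.20). Mcm6 was 21.7 TPM in contralateral replicate 4 (others 46.56 to 50.78) and Cdt1 was 16.14 TPM in contralateral replicate 2 (others 27.34 to 28.94). Rrm2 was 2.92 TPM in Tdt- replicate 4 (others 0.15 to 0.17), Tyms was 12.52 TPM in Tdt- replicate 2 (others 19.4 to 20.25), and Ccnb2 was 1.18 TPM in Tdt+ replicate 4 (others 0).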

How the results depend on the processing

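Mki67, Top2a, Pcna, Mcm6 and Ccnd1, the genes followed through every alternative, had no called change that reversed. The 24 members called between days 3 and 7 were 9 with a pseudocount of 0.1, and the 2 called between days 14 and 28 were 1 with no filter; the cause was not tested. With each library left out in turn, 15 to 24 members were called between days 3 and 7, 14 to 19 between days 7 and 14, 0 to 2 between days 14 and 28 and 34 to 37 between days 3 and 28, and 0 in each comparison at day 7, at day 28 and after LPS. Leaving out the trio numbered 1 at day 7 or the trio numbered 4 after LPS, both chosen after seeing the data, also left 0. How many of all genes were called with a pseudocount of 0.1, no filter or libraries left out is not given here. These member counts therefore have no background beside them. Quantile normalization moved the median of all genes from 0.56 to 0.09 between days 3 and 28, and gave 4047 called genes in place of 6681. Read depth is unknown, so a value of 0 has no stated limit.

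With library number as a replicate block, 23, 17, 3 and 37 members were called at days 7 against 3, 14 against 7, 28 against 14 and 28 against 3, and 0 in every comparison of the other tables. Of 15316 genes in the time course, 2023, 859, 893 and 6537 were called with the block in the same order. In the other tables the block gave 27, 1 and 1 genes at day 7, 0 in each comparison at day 28 and 930, 62 and 119 after LPS. In limma with the block, Ccnd1 was called higher at day 28 than at day 3 (0.61, adjusted p 0.0474). That estimate is close to the median of 0.56 over all genes in the fit without the block. Cdt1 between days 14 and 28 (-1.15, adjusted p 0.0396) and Prc1 between days 7 and 14 (-1.74, adjusted p 0.0287) gained a call as lower. The falls of Bub1 between days 3 and 7 (adjusted p 0.0574) and of Cdc20 (0.0601) and Nusap1 (0.0636) between days 7 and 14 lost theirs. Residual correlations of same-numbered libraries were 0.0328 to 0.166 at day 7, -0.00835 to 0.187 at day 28 and -0.0314 to 0.0556 in the time course. After LPS for Tdt- with contralateral they were 0.0741 to 0.563, against a mean of -0.086 for unlike numbers. None of these had every pair over 0.1, so numbers were not counted as paired there.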
